A study of Homo sapiens with 12 samples.

Results

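The proteasome is the protease of the cytosol and nucleus that degrades proteins tagged with ubiquitin. The 35 genes described here encode the subunits of its 20S core and 19S regulatory particle, and they were taken by gene symbol from a table of 16172 genes. They comprise 7 alpha subunits (PSMA1 to PSMA7), 7 constitutive beta subunits (PSMB1 to PSMB7), 3 immunoproteasome beta subunits (PSMB8, PSMB9 and PSMB10), 6 ATPases (PSMC1 to PSMC6), 4 other base subunits (PSMD1, PSMD2, PSMD4 and ADRM1) and 8 lid subunits (PSMD3, PSMD6, PSMD7, PSMD8, PSMD11, PSMD12, PSMD13 and PSMD14). All 35 were in the table and passed the filter of a mean of at least 1 TPM (transcript abundance corrected for length and given as a share of the library), and none was at 0 in any library. The cells were H1299, an established human non-small cell lung cancer line. They were transfected with a control siRNA (siCtrl) or with an equal mix of 2 siRNAs against EIF3G (siEIF3G), a subunit of the translation initiation factor eIF3, and were lysed after 72 h. RNA was sequenced from 10% of the lysate (input) and from the polysomal fraction of a sucrose gradient. This gave 4 groups of 3 libraries, namely siCtrl input, siCtrl polysomal, siEIF3G input and siEIF3G polysomal.

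In the 20S core, alpha rings close the ends of the barrel and beta rings inside it carry the proteolytic sites on PSMB5, PSMB6 and PSMB7. PSMB8, PSMB9 and PSMB10 replace these catalytic subunits in the immunoproteasome, which interferon induces. The 19S particle binds ubiquitin chains through PSMD4 and ADRM1 in the base, removes them with the lid protease PSMD14, and unfolds the substrate with a ring of ATPases. The subunits of a finished complex are present in fixed ratios.

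The siRNAs are shown because every group contrast between siEIF3G and siCtrl rests on them.
siEIF3G-4: gaacaaactcaagggccagaa
siEIF3G-5: gaggtcatcaacggaaacata
siCtrl: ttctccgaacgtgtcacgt
EIF3G itself was at 1158, 1092 and 878 TPM in siCtrl input and at 60.7, 84.7 and 47.3 TPM in siEIF3G input. In polysomal RNA it was at 1679.9 TPM or more in each siCtrl library and between 69.2 and 143 TPM in the siEIF3G libraries. Its log2 fold change was -4.03 in input (SE 0.29, limma adjusted p = 3.71e-05) and -4.02 in polysomal RNA (SE 0.29, limma adjusted p = 3.76e-05). The siRNA labels therefore matched the target in all 12 libraries.

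Fraction labels matched less closely. A set of 3 libraries correlated better over all genes with the libraries of the other fraction than with their own group, namely siCtrl input 1 (mean r 0.957 against 0.922), siEIF3G input 2 (0.958 against 0.929) and siEIF3G polysomal 3 (0.953 against 0.949). Where leaving out these 3 libraries changed the call of a member, this is said beside its class. Between 13787 and 14659 genes were above 0 per library. TPM sum to the same total in every library, so sequencing depth is unknown and a value is a share of the RNA sequenced. Of the markers of this line, KRT8, KRT18 and VIM were present at 146 TPM or more in siCtrl input, while EPCAM did not exceed 0.44 TPM. Of 7 markers of other cell types, PECAM1, COL1A1, ALB and SFTPB did not exceed 0.1 TPM, whereas CD68 reached 132 TPM, ACTA2 9.23 TPM and MBP 5.42 TPM.

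The first question was how the subunit mRNAs were distributed between polysomal and input RNA in control cells. Most constitutive beta subunit mRNAs took a larger share of polysomal RNA than of input RNA, and PSMD1, a scaffold subunit of the base, took a smaller one. Of the 35 members, 9 were higher and 1 was lower in polysomal RNA at a limma adjusted p under 0.05. Among all 10605 genes tested, 36.9% passed, 7.98% higher and 28.9% lower. The groups did not overlap, with polysomal higher, for 10 members, and with polysomal lower for 1; over all genes these shares were 16.9% and 28.9%. The median log2 fold change of the members was 0.24, with a range of -2.92 to 1.85, whereas that of all tested genes was -0.96. Above 0 were 19 of the 35 members, beside 28.8% of all genes. Rescaling the libraries by size factors shifted the median of all genes to -0.04, so that class values are given below also relative to all genes. Without ribosomal protein genes in the total, 9 members were higher and 5 lower. Without the 3 libraries nearer to the other fraction, 9 were higher and 14 lower, and 75.1% of all genes passed. Differences in the number of cells and in RNA per cell cannot be told apart in bulk RNA, and the labels do not say whether replicates were separate cultures, so p-values measure only the spread between these libraries, which may be technical.

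**Figure D1:**
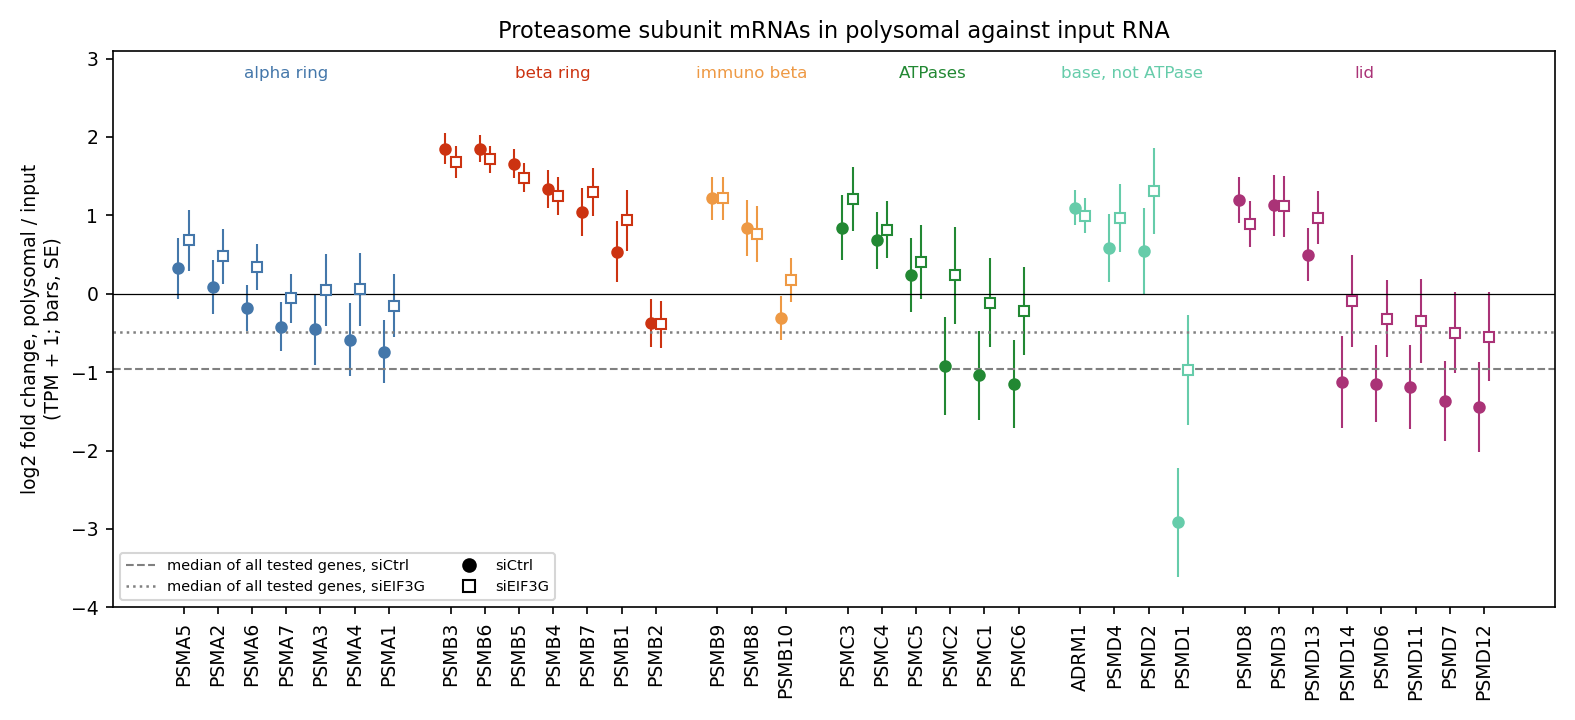
Log2 fold change of polysomal against input RNA on the TPM + 1 scale for each of the 35 members, by class, in siCtrl (filled circles) and siEIF3G (open squares), with bars for the SE and dashed and dotted lines for the medians of all tested genes. PSMB3 and PSMB6 stand highest in siCtrl, at 1.85 each, and PSMD1 lowest, at -2.92.

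The alpha subunits form the outer rings and hold the gate through which substrates enter. Their median log2 fold change was -0.42 in siCtrl, which is 0.55 above the median of all genes. None of the 7 passed the test, 2 were above 0 and 5 below, and the groups overlapped for all 7. With size factors all 7 were above 0 and 3 passed as higher. PSMA1 and PSMA7 passed as lower without siCtrl input 1. With size factors kept out and without the 3 libraries nearer to the other fraction, all 7 were below 0. Without those 3 libraries PSMA1 (-1.12), PSMA3 (-0.85), PSMA4 (-0.88) and PSMA7 (-0.79) passed as lower, with limma adjusted p of 0.0011 to 0.0186. The highest was PSMA5, at 18.97, 40.9 and 50.7 TPM in siCtrl input and 60.3, 42.5 and 31.0 TPM in siCtrl polysomal RNA. The lowest was PSMA1, at 67.1, 129.8 and 168 TPM in input and 68.5, 75.8 and 59.5 TPM in polysomal RNA. In both genes input library 1 lay below the other 2 input libraries, and the input and polysomal values overlapped. The log2 fold changes were 0.33 for PSMA5 (SE 0.39, limma adjusted p = 0.48) and -0.74 for PSMA1 (SE 0.40, limma adjusted p = 0.128). With quantile normalization the class median lay below that of all genes, by -0.51.

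The constitutive beta subunits stood apart from the alpha subunits that they stack against. Their median log2 fold change was 1.34, 2.30 above the median of all genes, and 5 of the 7 were higher in polysomal RNA. PSMB6, the subunit with caspase-like activity, was at 734, 743 and 687 TPM in siCtrl input and at 2556, 2682 and 2574 TPM in siCtrl polysomal RNA. PSMB3, a structural subunit, was at 515, 562 and 472 TPM in input and 1884, 1942 and 1765 TPM in polysomal RNA. PSMB5, which carries the chymotrypsin-like activity that bortezomib inhibits, was at 513, 503 and 455 TPM in input and 1497, 1614 and 1544 TPM in polysomal RNA. For these 3 genes every polysomal library lay far above every input library, and the replicates lay close together. The fold changes on the TPM + 1 scale were 3.61 for PSMB6 (log2 1.85, SE 0.18, limma adjusted p = 0.000198), 3.61 for PSMB3 (log2 1.85, SE 0.20, limma adjusted p = 0.000696) and 3.16 for PSMB5 (log2 1.66, SE 0.19, limma adjusted p = 0.000727). PSMB3 ranked 5 and PSMB6 ranked 6 from the top among the 10605 genes. All 3 passed under each of the 24 other settings tried.

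PSMB4, a structural subunit, was at 420, 689 and 694 TPM in siCtrl input and 1701, 1503 and 1265 TPM in polysomal RNA. Its groups did not overlap (log2 fold change 1.34, SE 0.24, limma adjusted p = 0.00874), and it lost its call only without siCtrl polysomal 2. PSMB7, the subunit with trypsin-like activity, spanned 372 to 760.4 TPM in input and 941 to 1527 TPM in polysomal RNA. Its log2 fold change was 1.04 (SE 0.31, limma adjusted p = 0.0361), and it passed under 14 of the 24 other settings. The remaining structural subunits did not pass the test. PSMB1 had a log2 fold change of 0.54 with overlapping groups (SE 0.39, limma adjusted p = 0.245). PSMB2 was at 36.5, 62.3 and 70.8 TPM in input and 43.1, 40.4 and 42.0 TPM in polysomal RNA, again with overlap through input library 1 (log2 fold change -0.37, SE 0.30, limma adjusted p = 0.297). Without the 3 libraries nearer to the other fraction PSMB2 passed as lower (-0.65, limma adjusted p = 0.0294), and with size factors all 7 beta subunits were above 0.

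In siCtrl input the median of the group means was 52.5 TPM for the immunoproteasome subunits and 591 TPM for the constitutive beta subunits. PSMB2, the lowest of the latter, was at 56.5 TPM. PSMB9 was at 58.3, 56.6 and 42.7 TPM in siCtrl input and 107, 125 and 137 TPM in siCtrl polysomal RNA. PSMB8 was at 36.9, 40.4 and 37.7 TPM in input and 70.25, 68.3 and 69.6 TPM in polysomal RNA. PSMB10 was at 132, 92.5 and 72.4 TPM in input and 70.03, 78.4 and 84.8 TPM in polysomal RNA. The median log2 fold change of these 3 subunits in siCtrl was 0.84, 1.81 above the median of all genes. The groups did not overlap for PSMB9 and PSMB8 and overlapped for PSMB10. PSMB9 passed the test (log2 fold change 1.22, SE 0.27, limma adjusted p = 0.0184), PSMB8 did not (0.84, SE 0.35, limma adjusted p = 0.0641), and PSMB10 was at -0.31 (SE 0.28, limma adjusted p = 0.355). Without the 3 libraries nearer to the other fraction PSMB8 passed as well (0.81, limma adjusted p = 0.00692). PSMB9 lost its call without siCtrl input 2, input 3, or any of the 3 siCtrl polysomal libraries.

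**Figure D2:**
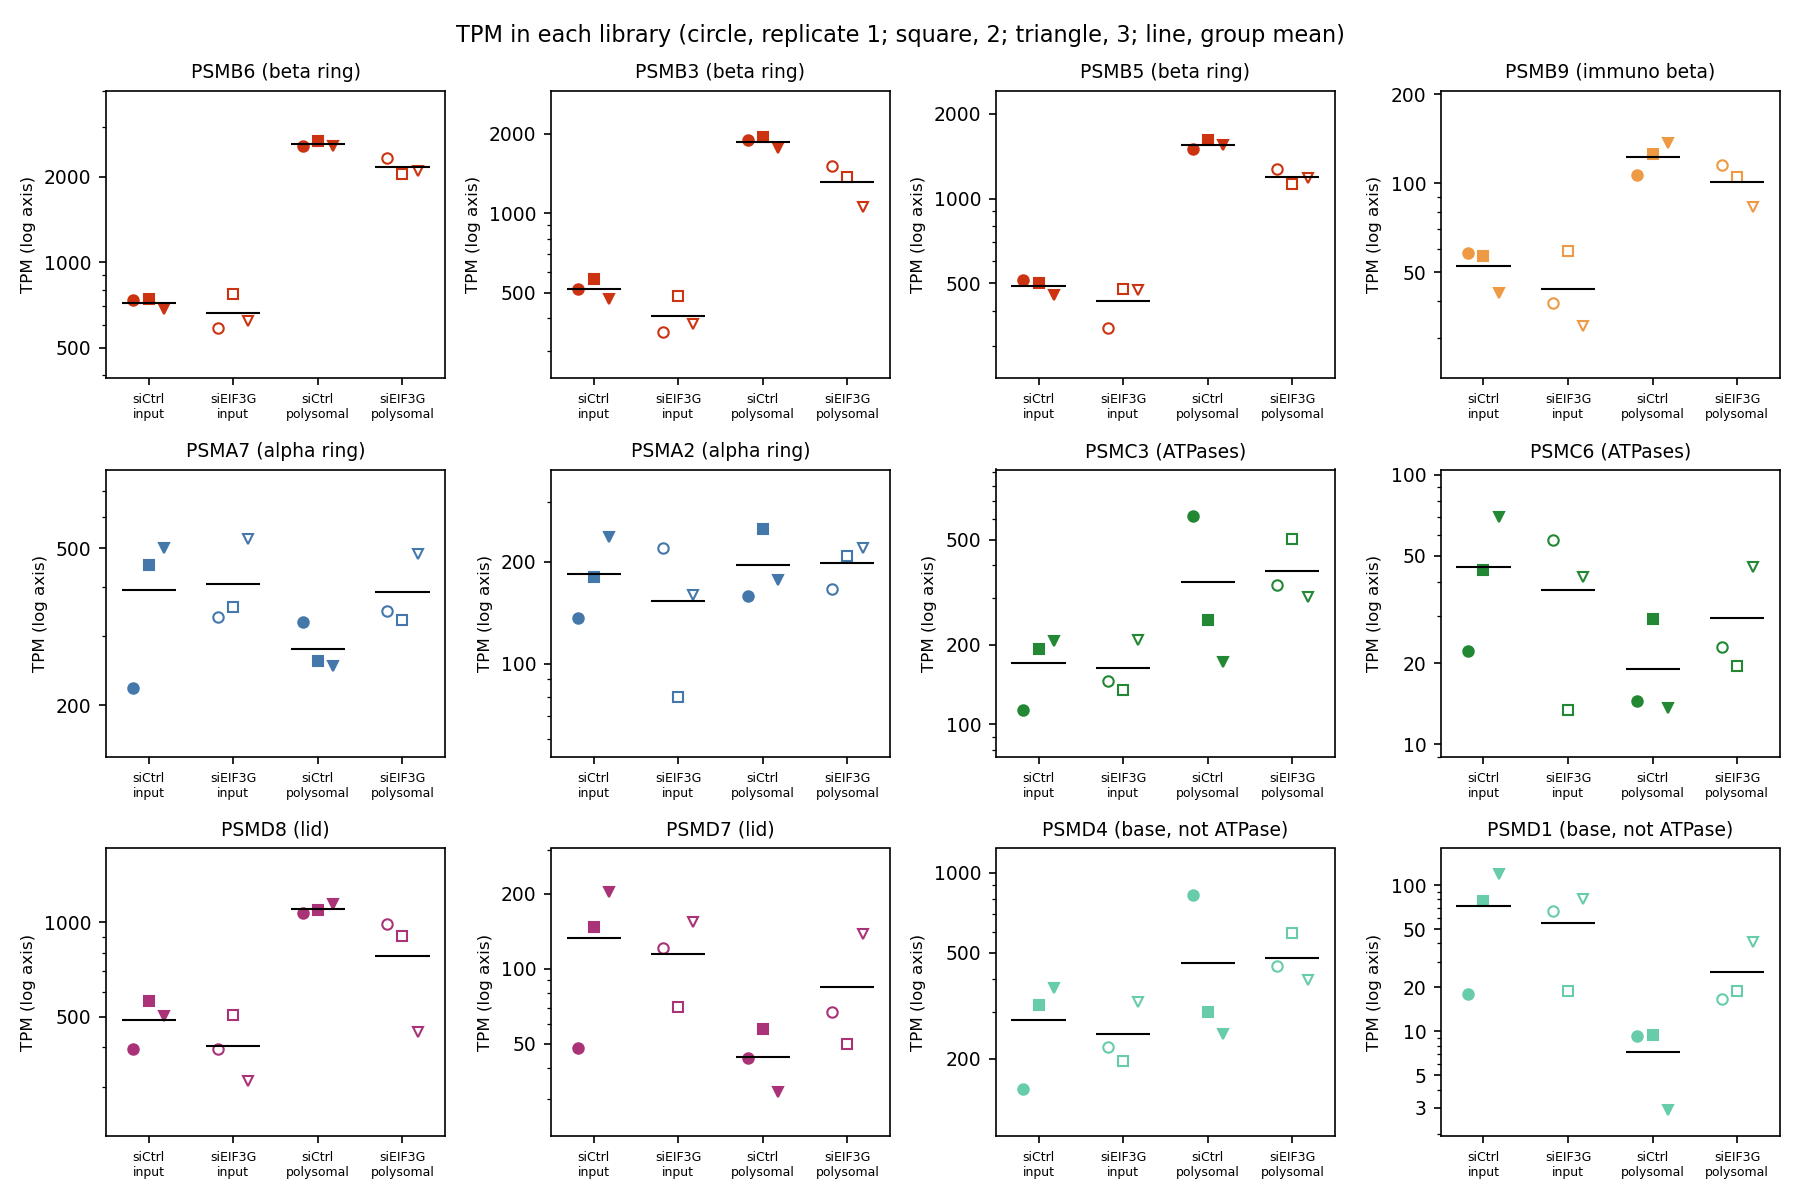
TPM on a log axis in each library for 12 members, with circles, squares and triangles for replicates 1, 2 and 3, filled for siCtrl and open for siEIF3G, and a line for the group mean. The polysomal values of PSMB6, PSMB3 and PSMB5 lie above all input values, whereas siCtrl input 1 of PSMD1 and PSMD7 lies close to the polysomal values.

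The ATPases form a ring of 6 different proteins that unfolds substrates and opens the gate of the core. None of them passed the test in siCtrl, and their class median of -0.34 was 0.63 above the median of all genes. As deposited they divided by sign, with PSMC3 (0.85), PSMC4 (0.68) and PSMC5 (0.24) above 0 and PSMC2 (-0.92), PSMC1 (-1.04) and PSMC6 (-1.15) below. With size factors 5 of the 6 were above 0. PSMC3 was at 113, 193 and 207 TPM in input and 614, 249.2 and 172 TPM in polysomal RNA. PSMC6 was at 22.2, 44.4 and 69.8 TPM in input and 14.5, 29.1 and 13.6 TPM in polysomal RNA. Polysomal library 1 held by far the highest PSMC3 value, and the groups overlapped for both genes (limma adjusted p = 0.0957 for PSMC3 and 0.0934 for PSMC6). With quantile normalization the class median lay -0.26 from that of all genes. The lower side was called without siCtrl input 1 or without all 3 libraries nearer to the other fraction for PSMC1, PSMC2 and PSMC6.

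The base subunits without ATPase activity had a median log2 fold change of 0.56 in siCtrl, 1.53 above the median of all genes. Above 0 were 3 of the 4, and the other was the lowest of all members. PSMD1 was at 18.1, 77.8 and 119 TPM in siCtrl input and 9.29, 9.43 and 2.89 TPM in siCtrl polysomal RNA. Every polysomal library was below every input library, and input 1 lay nearer to the polysomal values than to the other input values. The log2 fold change was -2.92 (SE 0.70, limma adjusted p = 0.0234), which ranked 39 from the bottom of 10605 genes. PSMD1 lost its call when only the groups compared were fitted and without siCtrl input 2, input 3, or any of the 3 siCtrl polysomal libraries, and its log2 fold change stayed between -3.70 and -1.84 under all 24 other settings. ADRM1, a ubiquitin receptor, was at 345, 359 and 295 TPM in input and 886, 712 and 572 TPM in polysomal RNA. Its groups did not overlap (log2 fold change 1.10, SE 0.22, limma adjusted p = 0.0137), and the call was lost without siCtrl input 2 or 3 or siCtrl polysomal 1 or 2. PSMD2, a scaffold that binds shuttle factors, had a log2 fold change of 0.54 (limma adjusted p = 0.407), and PSMD4, the other ubiquitin receptor, 0.58 (limma adjusted p = 0.256). In these last 2 genes siCtrl polysomal 1 was far above the other polysomal libraries, at 611 against 166 and 103 TPM for PSMD2 and at 823 against 299 and 248.8 TPM for PSMD4.

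The lid subunits were the only class whose median, -1.14, lay below that of all genes, by -0.17; with size factors it lay 0.05 above. As deposited the lid divided into 3 members above 0 and 5 below, and with size factors into 4 and 4. PSMD8, a scaffold subunit, was at 395, 562 and 505 TPM in siCtrl input and 1069, 1096 and 1147 TPM in siCtrl polysomal RNA. PSMD12, another scaffold subunit, was at 11.96, 37.0 and 53.1 TPM in input and 11.3, 14.3 and 6.0 TPM in polysomal RNA. The groups were far apart for PSMD8 and overlapped for PSMD12 through input 1. PSMD8 was higher (log2 fold change 1.19, SE 0.29, limma adjusted p = 0.0246), and its call was lost without siCtrl input 2 or 3 or any siCtrl polysomal library. PSMD3 was at 55.5, 99.6 and 96.9 TPM in input and 318, 158 and 113 TPM in polysomal RNA, with a call (log2 fold change 1.13, SE 0.39, limma adjusted p = 0.0452) that held under only 8 of the 24 other settings. PSMD13 was at 0.50 with overlapping groups (limma adjusted p = 0.216). Below 0 were PSMD12 (-1.44), PSMD7 (-1.37), PSMD11 (-1.19), PSMD6 (-1.15) and the deubiquitinase PSMD14 (-1.13), with limma adjusted p between 0.0513 and 0.116. Without siCtrl input 1, or without all 3 libraries nearer to the other fraction, each of these 5 passed the test as lower, and in the latter setting PSMD3 lost its call.

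Levels per length spread out in the polysomal fraction. In siCtrl input the group means ran from 26.6 TPM for PSMD11 to 721 TPM for PSMB6, a ratio of 27.2. In siCtrl polysomal RNA they ran from 7.20 TPM for PSMD1 to 2604 TPM for PSMB6, a ratio of 361. Summed over each class, the constitutive beta subunits took 0.358% ± 0.062 (SD, n = 3) of siCtrl input libraries and 0.955% ± 0.074 of siCtrl polysomal libraries. The alpha subunits took 0.121% ± 0.044 and 0.0941% ± 0.010. The core thus had 7 alpha mRNAs whose summed share was lower on average in polysomal RNA with overlapping libraries, and 7 beta mRNAs whose lowest polysomal share, 0.877%, lay above their highest input share, 0.401%. The lid took 0.105% ± 0.036 of input and 0.158% ± 0.016 of polysomal libraries, with PSMD8 the largest contributor, so that the sum and the median of the lid point in opposite directions.

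**Figure D3:**
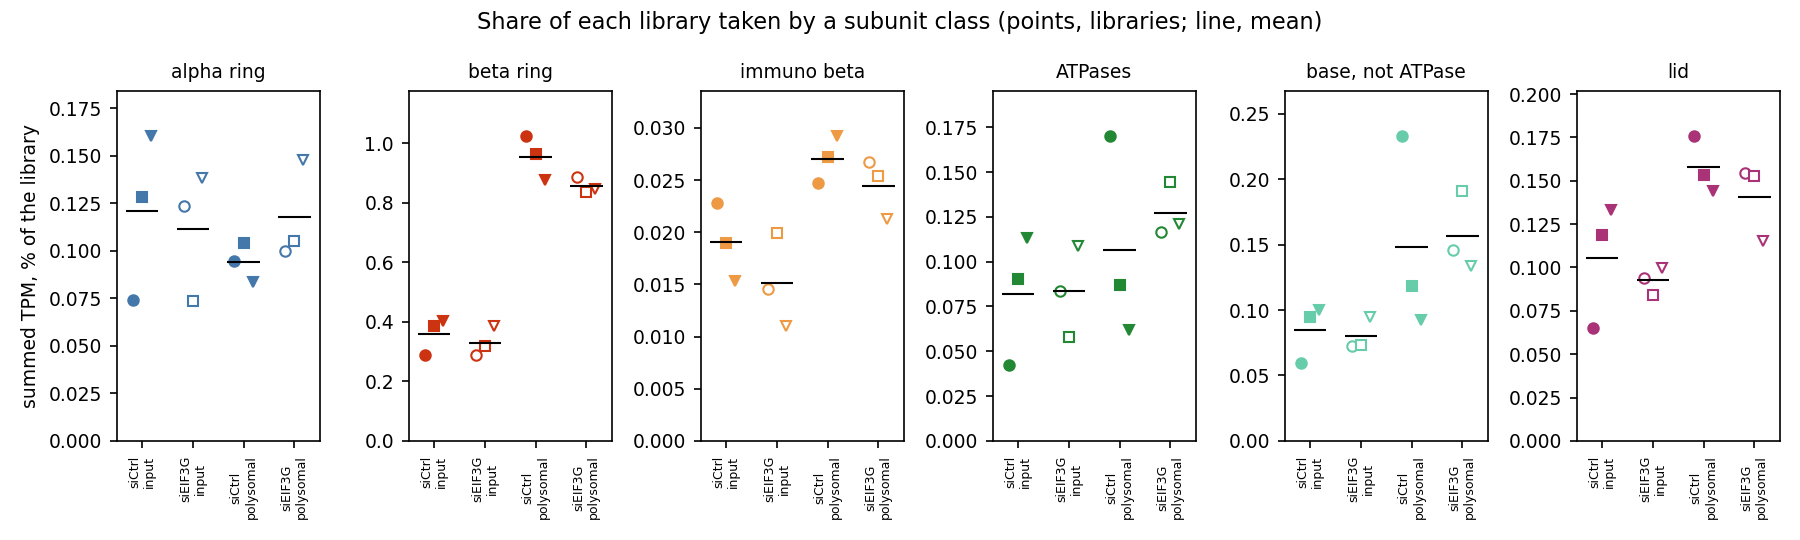
Summed TPM of each subunit class as a percentage of the library, with 1 point per library, filled for siCtrl and open for siEIF3G, and a line for the group mean. The constitutive beta subunits have all 6 polysomal libraries at 0.835% or more and all 6 input libraries at 0.401% or less.

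The contrast between polysomal and input RNA was also made in knockdown cells, from separate libraries. There 7 members were higher and 0 lower (limma adjusted p under 0.05), against 1.81% of all genes higher and 1.33% lower, 3.14% in all. The 7 were PSMB6 (log2 fold change 1.71, limma adjusted p = 0.000405), PSMB3 (1.68, 0.00116), PSMB5 (1.48, 0.00136), PSMB7 (1.3, 0.037), PSMB4 (1.25, 0.017), PSMB9 (1.22, 0.0304) and ADRM1 (1.00, 0.0314). Of 24 other settings, the calls held under 23 for PSMB6, PSMB3 and PSMB5, 18 for PSMB4, 13 for ADRM1, 12 for PSMB9 and 9 for PSMB7, which was also lost with the replicate block. PSMB6 was at 587, 772 and 623 TPM in siEIF3G input and at 2335, 2046 and 2093 TPM in siEIF3G polysomal RNA. PSMB3 was at 356, 487 and 379 TPM in input and 1511, 1376 and 1053 TPM in polysomal RNA. PSMB5 was at 346, 475 and 474 TPM in input and 1278, 1126 and 1179 TPM in polysomal RNA. No polysomal library of these 3 genes overlapped an input library. The number of members called was 0 with size factors and 22 without the 3 libraries nearer to the other fraction, 13 higher and 9 lower, where 71.1% of all genes passed. Above 0 were 24 of the 35 members, beside 30.2% of all genes, and 16 reached an unadjusted p under 0.05, beside 20.5%. The groups did not overlap, with polysomal higher, for 15 members (9.4% of all genes) and with polysomal lower for 0 (12.7% of all genes).

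The constitutive beta subunits again had the highest class median and the lid the lowest. Relative to all genes, whose median was -0.49, the constitutive beta median was 1.79, the base 1.47, the immunoproteasome 1.26, the ATPases 0.81, the alpha subunits 0.55 and the lid 0.29. PSMD1 was again the lowest, at 66.4, 19.02 and 80.9 TPM in siEIF3G input and 16.6, 18.98 and 40.5 TPM in siEIF3G polysomal RNA. These groups overlapped, and the difference did not pass the test (log2 fold change -0.97, SE 0.70, limma adjusted p = 0.386). The overlap came from siEIF3G input 2 and siEIF3G polysomal 3, and without the 3 libraries nearer to the other fraction PSMD1 passed as lower (-1.99, limma adjusted p = 0.00153). In that setting the other members lower were PSMA1, PSMA3, PSMC6, PSMD6, PSMD7, PSMD11, PSMD12 and PSMD14, and PSMB8, PSMC3, PSMC4, PSMD3, PSMD8 and PSMD13 were higher beside the 7 named above. Immunoproteasome PSMB8 was at 35.1, 49.3 and 22.3 TPM in input and 79.1, 74.8 and 33.2 TPM in polysomal RNA, and PSMB10 at 71.6, 90.9 and 54.7 TPM against 72.5, 74.02 and 96.7 TPM, both with overlap. PSMB9 was at 39.5, 59.0 and 32.9 TPM in input and 115, 105 and 82.9 TPM in polysomal RNA, without overlap.

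Effects of the knockdown on the members were asked next, in comparisons that share their libraries with those above. In input RNA 0 of 35 members passed the limma test, 0 reached an unadjusted p under 0.05, against 0.0189% and 1.36% of all genes. The groups overlapped for all 35 members, whereas 1.88% of all genes were higher and 1.8% lower without overlap. Above 0 were 9 of the 35 members, beside 43% of all genes. Log2 fold changes ran from -0.52 for PSMA3 to 0.32 for PSMC5, with a median of -0.12 against -0.05 for all genes. The lowest 5 were PSMA3 (-0.52), PSMB10 (-0.43), PSMA4 (-0.39), PSMB3 (-0.35) and PSMC6 (-0.35), and the highest 5 were PSMC5 (0.32), PSMA5 (0.14), PSMB4 (0.11), PSMD3 (0.11) and PSMA7 (0.10). The SE of these differences lay between 0.20 and 0.56, so that changes of that size were not detectable with 3 libraries per group.

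In polysomal RNA 0 members passed the limma test, against 0.0189% of all genes, and 2 reached an unadjusted p under 0.05, against 6.69% of all genes. The members had a median log2 fold change of 0.27, beside 0.33 for all genes, and 26 of 35 were above 0, beside 72.7% of all genes. PSMD1 was highest, at 9.29, 9.43 and 2.89 TPM in siCtrl and 16.6, 18.98 and 40.5 TPM in siEIF3G polysomal RNA. PSMD14 was at 58.5, 77.8 and 33.0 TPM in siCtrl and 95.4, 89.1 and 182 TPM in siEIF3G. PSMC2 was at 39.0, 28.7 and 11.3 TPM in siCtrl and 40.6, 44.3 and 73.5 TPM in siEIF3G. In each of these genes all siEIF3G libraries were above all siCtrl libraries, and replicate 3 was the lowest siCtrl and the highest siEIF3G library. Their log2 fold changes were 1.71 (SE 0.70), 1.10 (SE 0.59) and 1.09 (SE 0.62), each with a limma adjusted p of 0.65, and PSMD7 (0.83) and PSMC1 (0.81) followed. Without the 3 libraries nearer to the other fraction, which include siEIF3G polysomal 3, the value of PSMD1 was 1.33 (limma adjusted p = 0.213). At the other end were PSMD8 (-0.58), PSMB3 (-0.52), PSMB5 (-0.38), PSMB9 (-0.29) and PSMB6 (-0.27), with limma adjusted p of 0.65 to 0.67. Groups did not overlap for 7 members that were higher in siEIF3G and 4 that were lower, beside 21.6% and 7.61% of all genes.

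By class, the polysomal medians were 0.65 for the lid, 0.53 for the ATPases, 0.50 for the base, 0.34 for the alpha subunits, -0.03 for the constitutive beta subunits and -0.25 for the immunoproteasome. Whether the siRNA effect differed between fractions was tested by the interaction, in which 0 members and 0 of all genes passed the limma test; 0 members and 0.179% of all genes reached an unadjusted p under 0.05. The largest member difference was that of PSMD1, 1.94 on the log2 scale (SE 0.99, limma adjusted p = 0.908), and the smallest that of PSMD8, -0.30 (SE 0.41, limma adjusted p = 0.908). The median interaction of the members, 0.39, was near that of all genes, 0.38, and 25 of the 35 were above 0, beside 73.9% of all genes. In these comparisons the count of members called was 0 under each of the 24 other settings, the exclusion of the 3 libraries nearer to the other fraction included.

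**Figure D4:**
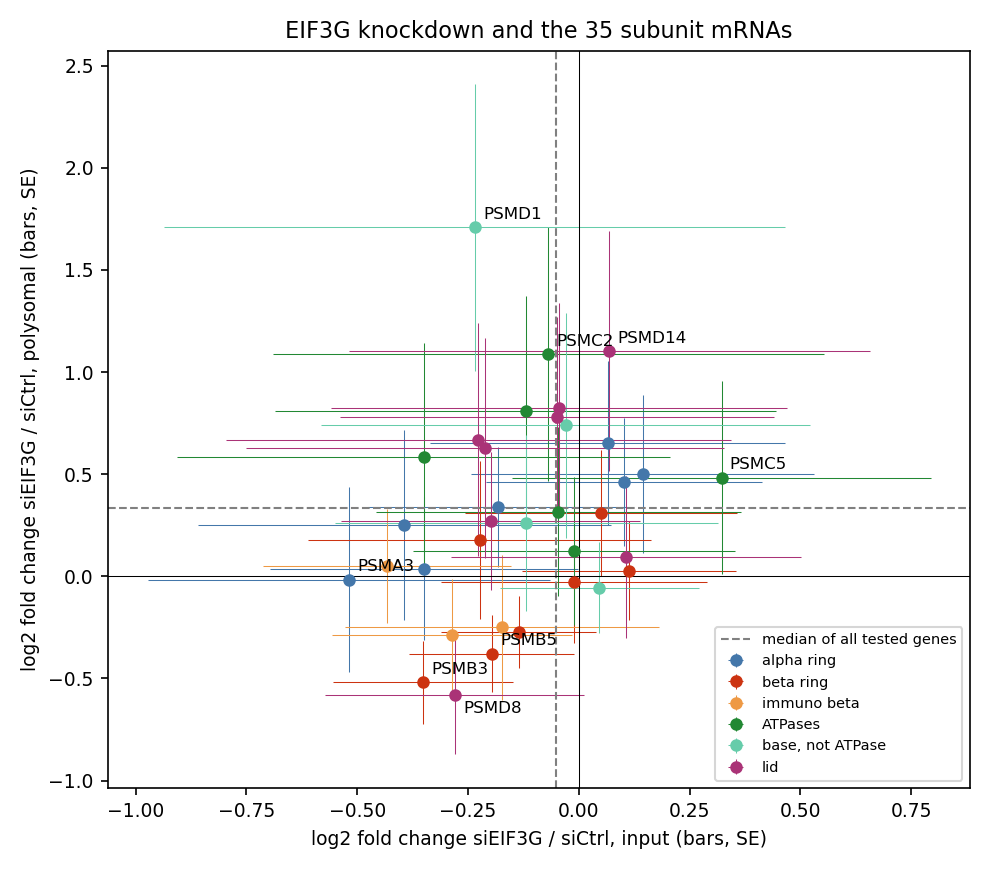
Log2 fold change of siEIF3G against siCtrl in input RNA (horizontal) and in polysomal RNA (vertical) for the 35 members, coloured by class, with bars for the SE and dashed lines for the medians of all tested genes. All members lie between -0.52 and 0.32 in input, while PSMD1 reaches 1.71 in polysomal RNA.

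Genes that build, activate or feed the proteasome were compared in the same fit, from a list of 48 genes of which 45 were tested. In siCtrl 4 of these were higher and 17 lower in polysomal RNA, beside 7.98% and 28.9% of all genes. Their median log2 fold change was -0.91, close to the -0.96 of all genes, and the genes named next are given as a description. The higher genes included UBB (1.34), a polyubiquitin gene, PSMD9 (1.34), an assembly chaperone of the base, and PSME1 (1.11), a subunit of the 11S activator. UBB was at 1057, 2122 and 2238 TPM in siCtrl input and at 4653, 4314 and 4053 TPM in siCtrl polysomal RNA. PSMD9 was at 20.03, 29.1 and 35.2 TPM in input and 59.9, 72.2 and 82.5 TPM in polysomal RNA. Neither gene's groups overlapped.

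Among assembly chaperones, PSMG2 (-1.24), PSMG3 (-0.84), PSMG4 (-0.80) and PSMD5 (-1.59) were lower. Of the proteins that bind the proteasome, the deubiquitinase USP14 (-2.10), the adaptor ECPAS (-2.38), the thioredoxin-like TXNL1 (-1.23) and the ubiquitin ligase UBE3A (-1.80) were lower. USP14 was at 7.76, 27.9 and 42.2 TPM in siCtrl input and 4.88, 6.69 and 2.10 TPM in polysomal RNA. Its groups did not overlap, and input 1 was again the input library nearest to the polysomal values. Of the shuttle factors that carry ubiquitinated proteins, RAD23B (-1.74), UBQLN1 (-1.96) and UBQLN2 (-1.94) were lower, whereas UBQLN4 was at 0.41 (limma adjusted p = 0.315). The activator PSME4 (-2.06), the segregase VCP (-2.01) and its cofactor FAF2 (-1.85) were also lower. So were the ubiquitin-activating enzyme UBA6 (-1.98) and the transcription factor subunit NFYB (-1.53). The groups overlapped for PSMD5, ECPAS, UBE3A, RAD23B, UBQLN1, VCP and FAF2, with limma adjusted p of 0.03 to 0.0473. VCP was at 76.5 TPM in siCtrl polysomal 1 and at 60.6 TPM in siCtrl input 1. For the other genes named here as lower the groups did not overlap. Calls of single pathway genes were not tested under the other settings. The other ends of these lists did not pass: SEM1, a small lid subunit, was at -0.45, NPLOC4, a VCP cofactor, at 0.18, NFE2L2 at -1.92 and NFE2L1, the factor that induces proteasome genes, at -0.67. In siEIF3G 1 of the 45 was higher, UBB (1.41, limma adjusted p = 0.0173), and 1 was lower. The knockdown comparisons called 0 of the 45, and 3, VCP (1.66) and UBA1 (1.40) among them, reached an unadjusted p under 0.05 in polysomal RNA.

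Promoter windows were examined for what the members share apart from their values. RefSeq windows of 300 bases around the start, most of them before it, on GRCh38.p14 were matched by symbol for 30 of the 35 members; PSMA7, PSMB1, PSMB6, PSMB7 and PSMD4 were not matched. A set of 6 motifs was searched on both strands. The antioxidant response element core TGACNNNGC, the site of NFE2L1 and NFE2L2, was in 9 of the 30 members (30%) and in 16.1% of all symbols with a window. The looser form TGANNNNGC, which contains it, was in 20 members (66.7%) and 47.1% of all symbols. The CCAAT box, bound by NF-Y, was in 17 members (56.7%) and 39.7% of all symbols. The ETS core CCGGAAG was in 10 members (33.3%) and 12.2% of all symbols. The palindrome of nuclear respiratory factor NRF1 was in 1 member, PSMA4, and the pyrimidine tract CTCTTTCC in 0. Among the genes tested, the shares for TGACNNNGC, TGANNNNGC, CCAAT and CCGGAAG were 19.7%, 51.4%, 43.8% and 24.6%. Such matches are letters in a window and do not show binding.

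A set of 6 windows, from 150 bases before to 30 after the start, is printed for the 3 matched beta subunits that were highest in polysomal RNA and for 3 of the base and lid subunits that were lowest. Capitals mark TGACNNNGC, CCAAT or CCGGAAG on either strand.
PSMB3 (chr17:38752591-38752770, plus strand): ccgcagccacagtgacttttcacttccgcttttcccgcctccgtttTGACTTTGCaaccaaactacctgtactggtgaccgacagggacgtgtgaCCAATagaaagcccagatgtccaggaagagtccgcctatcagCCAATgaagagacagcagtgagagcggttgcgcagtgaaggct
PSMB5 (chr14:23035191-23035370, minus strand): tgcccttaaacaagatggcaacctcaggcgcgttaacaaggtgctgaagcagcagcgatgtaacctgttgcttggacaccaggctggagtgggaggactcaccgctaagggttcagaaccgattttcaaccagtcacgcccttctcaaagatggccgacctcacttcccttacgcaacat
PSMB4 (chr1:151399423-151399602, plus strand): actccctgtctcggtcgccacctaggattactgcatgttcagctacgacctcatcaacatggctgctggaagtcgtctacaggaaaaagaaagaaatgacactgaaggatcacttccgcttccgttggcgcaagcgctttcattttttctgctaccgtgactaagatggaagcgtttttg
PSMD1 (chr2:231056717-231056896, plus strand): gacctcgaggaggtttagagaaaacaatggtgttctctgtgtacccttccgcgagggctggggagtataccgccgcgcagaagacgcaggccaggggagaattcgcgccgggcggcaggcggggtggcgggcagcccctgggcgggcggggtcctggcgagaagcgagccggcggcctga
PSMD12 (chr17:67366548-67366727, minus strand): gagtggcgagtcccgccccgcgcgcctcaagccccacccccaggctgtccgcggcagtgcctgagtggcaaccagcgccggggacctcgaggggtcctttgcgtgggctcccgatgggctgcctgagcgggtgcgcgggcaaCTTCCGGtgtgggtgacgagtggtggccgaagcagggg
PSMD7 (chr16:74296664-74296843, plus strand): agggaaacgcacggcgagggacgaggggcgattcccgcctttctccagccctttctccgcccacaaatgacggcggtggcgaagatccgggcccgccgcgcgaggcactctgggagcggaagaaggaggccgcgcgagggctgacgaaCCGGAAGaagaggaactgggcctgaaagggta
In these 180 bases PSMB3 has the antioxidant response element core and 2 CCAAT boxes, and PSMD12 and PSMD7 have CCGGAAG close to the start. PSMB5, PSMB4 and PSMD1 have none of the 3 motifs as written. Only matches to these strings were counted, so a window without CCGGAAG may still hold a variant of the ETS site. Over the full windows of 300 bases, PSMD1 and PSMD12 also held TGACNNNGC, and PSMB5 and PSMD7 held CCAAT. PSMB5 had 2 RefSeq windows, of which the first is printed and both were searched.

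Members with the ETS core were mostly lid and ATPase genes, namely PSMA6, PSMC1, PSMC2, PSMC6, PSMD6, PSMD7, PSMD8, PSMD12, PSMD13 and PSMD14. In siCtrl 8 of these 10 had a log2 fold change of polysomal against input below 0, with a median of -1.08, and 7 of the 20 others did, with a median of 0.43. Of all 10605 genes tested, 7546 were below 0. The 20 others included every constitutive beta subunit with a window, PSMB3, PSMB4 and PSMB5 among them. Over all tested genes the medians were -0.90 with the core and -0.99 without it. In siEIF3G the members' medians were -0.10 with the core and 0.72 without. The looser core TGANNNNGC also split these members, so a split was not particular to the ETS core. In siCtrl the median was 0.59 for the 20 members with TGANNNNGC, 7 of them below 0. It was -0.98 for the 10 without TGANNNNGC, 8 of them below 0. In siEIF3G these medians were 0.79 and -0.13. Both splits were seen after the values were known and were given no test. Within the ATPases in siCtrl as deposited, the 3 members with the ETS core (PSMC1, PSMC2 and PSMC6) were below 0 and the 3 without it above 0. In siEIF3G, however, PSMC2 was at 0.23. In siCtrl without the 3 libraries nearer to the other fraction PSMC5 was at -0.30, and with size factors 5 of the 6 ATPases were above 0. The lid held members of either sign with the ETS core and without it.

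**Figure D5:**
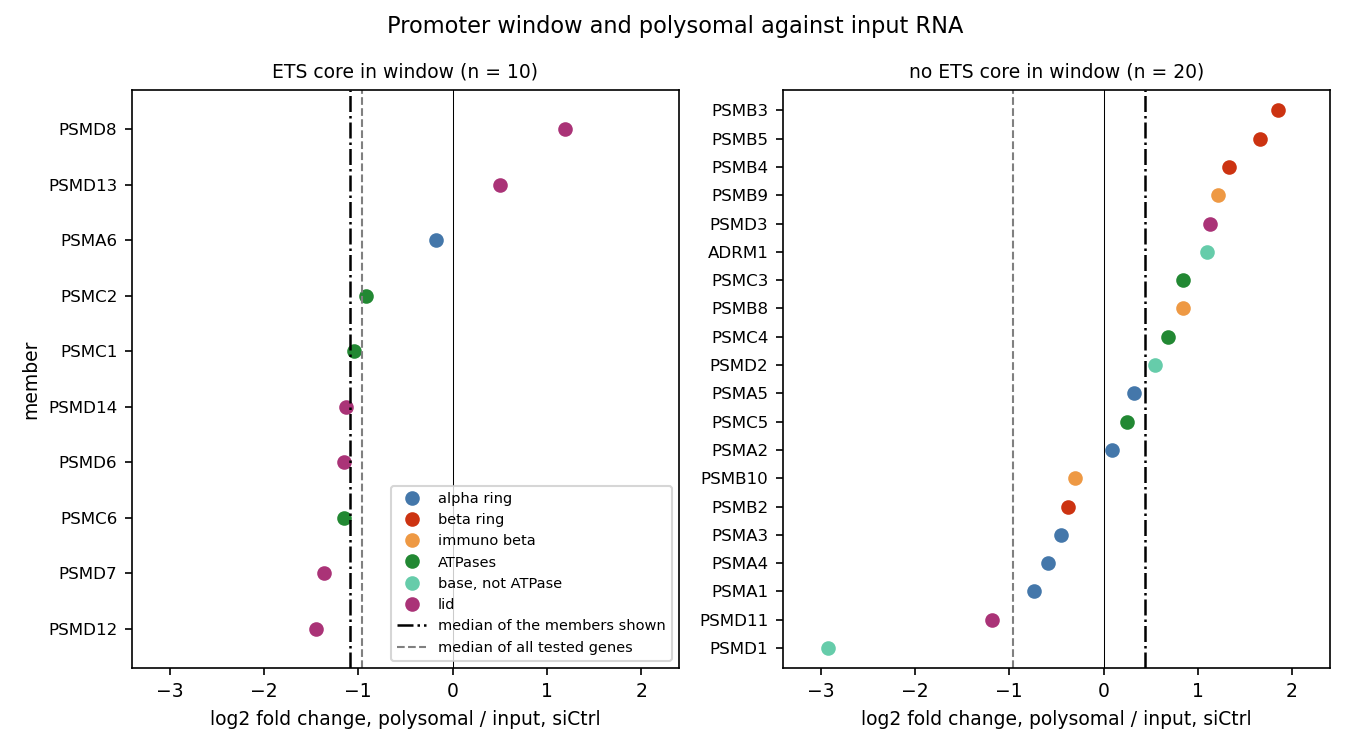
Log2 fold change of polysomal against input RNA in siCtrl for the 10 members with the ETS core in the RefSeq window and the 20 without it, coloured by class, with a dash-dotted line for the median of the members shown and a dashed line for the median of all tested genes. PSMD8 and PSMD13 are the members with the core that lie above 0.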

How the data were processed

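Per the submitters' processing notes, the authors used RSEM 1.3.1 and the genome build GRCh38.p13, and they deposited TPM per gene and library; aligner and annotation: not given in the sources used here. The 12 libraries came from H1299 cells in 4 groups of 3 by siRNA and fraction. The members and lists were chosen with earlier results of these data known. From the deposited TPM, log2(TPM + 1) was computed for 10605 genes averaging 1 TPM or more over the libraries (5567 were below), which understates the change of low genes. All groups were fitted together with limma 3.58.1 in R 4.3.3 (trended moderation, 8 residual degrees of freedom), for 5 comparisons, with Benjamini-Hochberg adjustment over all genes tested and a threshold of 0.05. The fit was tested on simulated data with independent noise in each gene and library, which held no shifts shared by many genes. Values per library are given for the highest and lowest member of each class in siCtrl, the 8 called members with the smallest p, the immunoproteasome subunits and, chosen after their values were seen, other members where a library stands apart. In the knockdown comparisons, the 5 highest and 5 lowest members are named. Of the pathway genes, those called and the extremes of their lists are named. Some genes are counted in these totals but not reported here by name. PSMA8 and DDI1 of the pathway list were not analysed here, and PSMB11 was below the filter. Gene symbols were used as deposited, and promoter windows came from RefSeq. Reads shared with near-identical copies and the counting of strand could not be checked from TPM.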

Additional observations from a re-analysis of the deposited data

How the results depend on the processing

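Alternatives were other pseudocounts (0.1 and 5), filters, scalings, moderation, fitting only the groups compared, the replicate block, leaving out each library, and leaving out the 3 libraries nearer to the other fraction. For polysomal against input in siCtrl, the 10 members called became 21 with size factors and 23 without those 3 libraries, and 3 to 19 with 1 library left out (3 without siCtrl polysomal 2, 4 without siCtrl input 2, siCtrl input 3 or siCtrl polysomal 1, 5 without siCtrl polysomal 3, 19 without siCtrl input 1). In siEIF3G the 7 called became 0 with size factors, 4 with quantile normalization or without ribosomal protein genes, 3 with no trend or with only the groups compared, and 22 without those 3 libraries, and 3 to 8 with 1 library left out (3 without siEIF3G input 1, siEIF3G polysomal 1 or siEIF3G polysomal 2, 4 without siCtrl input 2 or siCtrl polysomal 2). The members' median relative to all genes, 1.21 in siCtrl, was 0.75 with a pseudocount of 5, 0.56 with no filter, 0.86 with a minimum of 5 TPM, 0.073 with quantile normalization and 0.91 to 1.37 with 1 library left out. In siEIF3G, 0.97 became 0.74, 0.66 and 0.28 with a pseudocount of 5, no filter and quantile normalization, and 0.84 to 1.14 with 1 library left out. With quantile normalization the relative median was 0.21 for the knockdown in polysomal RNA and 0.37 for the interaction. The EIF3G check in input missed the threshold with size factors (-3.98, limma adjusted p = 0.0657). PSMA6 in siCtrl turned from -0.18 to 0.99 with size factors, and PSMA3 in siEIF3G from 0.05 to -0.69 without those 3 libraries. The causes were not tested. Depth is unknown, so no detection limit is given for single genes.

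Libraries with the same replicate number did not resemble each other throughout. The check used deviations from group means of 3 libraries, so it cannot tell whether same-numbered libraries came from the same cells. Over 18 same-numbered pairs the correlation of deviations ran from -0.689 to 0.712, 6 were over 0.1, and in 5 a library correlated best with its own number. With the replicate number as a block, 9 members were called for polysomal against input in siCtrl, 6 in siEIF3G and 0 in the other comparisons.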

Other observations

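The COP9 signalosome, which removes NEDD8 from cullin ubiquitin ligases, is built from subunits related to those of the proteasome lid. It was looked at after the values of the lid were known. The 9 of its genes looked at had a median log2 fold change of polysomal against input of -0.92 in siCtrl, beside -0.96 for all genes. Higher at a limma adjusted p under 0.05 were 2 of these 9 genes, beside 7.98% of all genes. COPS6 was at 177, 306 and 343.5 TPM in siCtrl input and at 608, 511 and 486 TPM in siCtrl polysomal RNA (log2 fold change 1.00, SE 0.29, limma adjusted p = 0.0346). GPS1 was at 234, 193 and 153 TPM in input and 421, 370.3 and 289 TPM in polysomal RNA (0.90, SE 0.25, limma adjusted p = 0.0322). For both genes every polysomal library was above every input library. COPS2, COPS3, COPS4, COPS5 and COPS8 lay between -1.27 and -0.92, with limma adjusted p of 0.0623 to 0.117, while COPS7A was at 0.57 and COPS7B at 0.09. COPS5, the metalloprotease that corresponds to PSMD14 of the lid, was at 36.0, 113 and 174 TPM in input and 37.8, 45.6 and 32.9 TPM in polysomal RNA, with input 1 among the polysomal values.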
